A study of Mus musculus with 21 samples.

Results

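Lymphocyte and plasma cell genes are a set of 35 listed genes that mark T cells, B cells, natural killer (NK) and cytotoxic cells, plasma cells and leukocytes in general. They were described here in 21 rhabdomyosarcoma (RMS) tumors of mice. Each gene was read on Clariom S Mouse arrays from the probe set with the highest mean over all tumors. Of the 35 genes, 32 had a probe set and are the members described, out of 19505 genes measured. They comprise 13 T cell, 7 NK and cytotoxic, 6 B cell and 5 plasma cell genes, and Ptprc. Cd27, Foxp3 and Gata3 had no probe set named in the annotation used here. The rule uses no measured value to choose members, and each of the 32 had a single probe set.

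The study set 14 NPE tumors, from Neu1+/−/Ptch1+/−/ETV7 TG+/− mice, against 7 PE tumors, from Ptch1+/−/ETV7 TG+/− mice. All tumors arose in the trunk or limb. Both groups thus carried 1 disrupted copy of Ptch1, the receptor that holds the hedgehog pathway in check, and a transgene for human ETV7, an ETS family transcription factor. The groups differed in Neu1, which encodes a lysosomal sialidase. The mice came from crosses of FVB/NJ mice with mice of a mixed background that included C57BL/6, both sexes were used, and the groups were not matched by litter. The study gives ages only as a range over all its mice and marks the limb or trunk site of single tumors only in a picture, so neither was used here. The age and sex of each tumor, and the promoter of the transgene, were not given in the sources used here. Tumors were flash frozen whole, with no sorting of cells. In such bulk samples, fewer cells of a type and less RNA per cell cannot be told apart.

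T cells recognize antigen through a receptor that signals by the CD3 chains, and B cells through an immunoglobulin receptor that signals by CD79A and CD79B. A B cell that becomes a plasma cell lowers many B cell genes and raises those for making and exporting antibody, so markers of both classes need not move together. NK cells and CD8 T cells share the granule proteins that kill target cells. Lymphocytes enter tumors from the blood, and the genes that mark them are therefore used to describe how much of each class a tumor sample holds.

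The promoters shown are those of the CD3 chains and Jchain, which lead the T cell and plasma cell patterns, and of a pair of NK and cytotoxic genes that share a motif. They are RefSeq sequences of the build GRCm38.p6, 250 bases before to 50 bases after the start site, written 5′ to 3′ on the strand of the gene. Cd3e (chr9:45009562-45009861, minus strand) and Cd3g (chr9:44980382-44980681, minus strand) were the T cell genes that varied most between tumors. Cd3d (chr9:44981536-44981835, plus strand) starts 1355 bases from Cd3g on the other strand, and varied less. Jchain (chr5:88527848-88528147, minus strand) had the widest range of all members. Gzmb (chr14:56262285-56262584, minus strand) and Ncr1 (chr7:4337465-4337764, plus strand) represent NK and cytotoxic genes. Capitals mark matches to GGAAGT, the core of ETS sites, or to TGTGGTT, the core of RUNX sites, on either strand. The octamer ATGCAAAT, to which the partner of the B cell coactivator Pou2af1 binds, was searched as well.
Cd3e: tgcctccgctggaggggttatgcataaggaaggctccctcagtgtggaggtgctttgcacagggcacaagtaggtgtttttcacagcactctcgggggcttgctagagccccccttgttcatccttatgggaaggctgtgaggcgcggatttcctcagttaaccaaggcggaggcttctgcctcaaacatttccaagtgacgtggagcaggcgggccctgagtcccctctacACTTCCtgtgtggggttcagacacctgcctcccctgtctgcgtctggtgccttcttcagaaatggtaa
Cd3g: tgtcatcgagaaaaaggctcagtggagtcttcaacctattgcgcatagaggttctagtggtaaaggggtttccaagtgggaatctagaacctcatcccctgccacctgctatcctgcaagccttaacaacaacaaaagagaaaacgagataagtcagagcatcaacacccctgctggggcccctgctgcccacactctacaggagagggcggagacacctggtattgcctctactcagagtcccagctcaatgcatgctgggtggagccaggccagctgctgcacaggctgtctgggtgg
Cd3d: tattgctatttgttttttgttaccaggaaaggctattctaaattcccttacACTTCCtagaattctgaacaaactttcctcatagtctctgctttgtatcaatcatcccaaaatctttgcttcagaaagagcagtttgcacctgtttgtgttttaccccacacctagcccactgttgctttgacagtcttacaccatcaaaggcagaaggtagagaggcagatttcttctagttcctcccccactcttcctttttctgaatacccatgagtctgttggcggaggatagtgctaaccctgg
Jchain: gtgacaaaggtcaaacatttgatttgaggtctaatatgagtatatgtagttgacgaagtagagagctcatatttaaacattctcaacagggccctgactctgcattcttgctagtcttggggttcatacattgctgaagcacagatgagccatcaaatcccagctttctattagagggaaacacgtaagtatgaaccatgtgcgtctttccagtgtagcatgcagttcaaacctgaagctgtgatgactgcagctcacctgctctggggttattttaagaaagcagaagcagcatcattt
Gzmb: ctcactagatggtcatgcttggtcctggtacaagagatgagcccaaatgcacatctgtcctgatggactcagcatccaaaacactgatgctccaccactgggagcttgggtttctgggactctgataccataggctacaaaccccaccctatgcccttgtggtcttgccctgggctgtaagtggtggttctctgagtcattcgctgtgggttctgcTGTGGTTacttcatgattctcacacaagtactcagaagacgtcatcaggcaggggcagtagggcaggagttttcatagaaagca
Ncr1: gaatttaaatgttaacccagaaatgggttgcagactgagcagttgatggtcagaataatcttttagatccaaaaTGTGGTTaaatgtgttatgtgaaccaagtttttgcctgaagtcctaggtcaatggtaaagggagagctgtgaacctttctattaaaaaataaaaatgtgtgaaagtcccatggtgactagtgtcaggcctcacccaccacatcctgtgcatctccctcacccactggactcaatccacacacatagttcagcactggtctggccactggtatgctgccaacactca

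Promoter windows were found for 22 of the 32 members, 24 windows in all. The search counted both strands, and none of the 3 motifs contains another. The RUNX core was in 5 of the 7 windows of NK and cytotoxic genes, those of Gzma, Gzmb, Klrk1 and both windows of Ncr1. It was in none of the 8 T cell, 3 B cell and 4 plasma cell windows, and in 5.27% of all 32851 promoters. The match began 34 bases before the start site in Gzmb and 176 bases before it in Ncr1. Both windows of Ncr1 overlap and hold the same match, which is thus counted in each. The ETS core was in 8 of 24 member windows and in 23.8% of all promoters. It was found in Cd3e, 18 bases before the start site, and in Cd3d, 199 bases before it, but not in the Cd3g window. It was also in the windows of Cd5, Tbx21, Prf1, Cd79a and Ptprc. The octamer was in none of the 24 windows and in 1.74% of all promoters. These matches describe the letters of the windows and say nothing of binding.

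Arrays were alike in overall signal, with medians of 5.32 to 5.41 (log2) in NPE and 5.33 to 5.37 in PE tumors. Neu1, the targeted gene, measured 6.36 ± 0.18 (s.d.) in the 14 NPE tumors and 6.62 ± 0.19 in the 7 PE tumors (log2 fold change -0.27, standard error 0.09, unadjusted p = 0.0073 and adjusted p = 0.513 from limma). The last numbers in the tumor titles fall into 3 ranges whose meaning is not given. The range 1 to 10 held 8 NPE tumors only, 18 to 23 held 1 NPE and 5 PE tumors, and 28 to 35 held 5 NPE and 2 PE tumors, so for the first range number and genotype cannot be told apart. NPE 1 and 2 stood apart by their adipocyte markers, with means of 9.53 and 9.51 over 7 genes against 4.35 to 7.51 in the other 19 tumors. NPE 3 stood apart by the lowest mean of rhabdomyosarcoma markers, 5.97 over 8 genes against 7.49 or more elsewhere, and the highest mean of neutrophil markers, 7.01 over 7 genes. NPE 11 and 12, PE 6 and 7, NPE 1 and 2, and NPE 7 and 8 were the pairs that resembled each other most closely, with correlations of 0.713, 0.681, 0.504 and 0.468 between their deviations over all genes.

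Across the 21 tumors the members varied unequally. The standard deviations of 7 members, Jchain, Cd3g, Cd3e, Sdc1, Icos, Cd4 and Ptprc, were at or above the 90th percentile of all genes, and 27 of the 32 were above the median gene. NPE 2 had the highest value of 13 members, and 28 of the 32 were highest in an NPE tumor. As 14 of the 21 tumors were NPE and maxima were not counted over all genes, these counts do not set the members apart. Other members lay near the array background, which had a mean of 2.84 (log2). The means of 9 members, Ctla4, Gzma, Gzmb, Prf1, Ncr1, Klrk1, Ms4a1, Pou2af1 and Mzb1, were within 1 log2 unit of it, and 6 of these fell below the background of at least 1 tumor's own array. Ncr1, the NK receptor NKp46, was above background in 11 of 21 tumors, and its mean over all tumors was equal to the background.

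**Figure D1:**
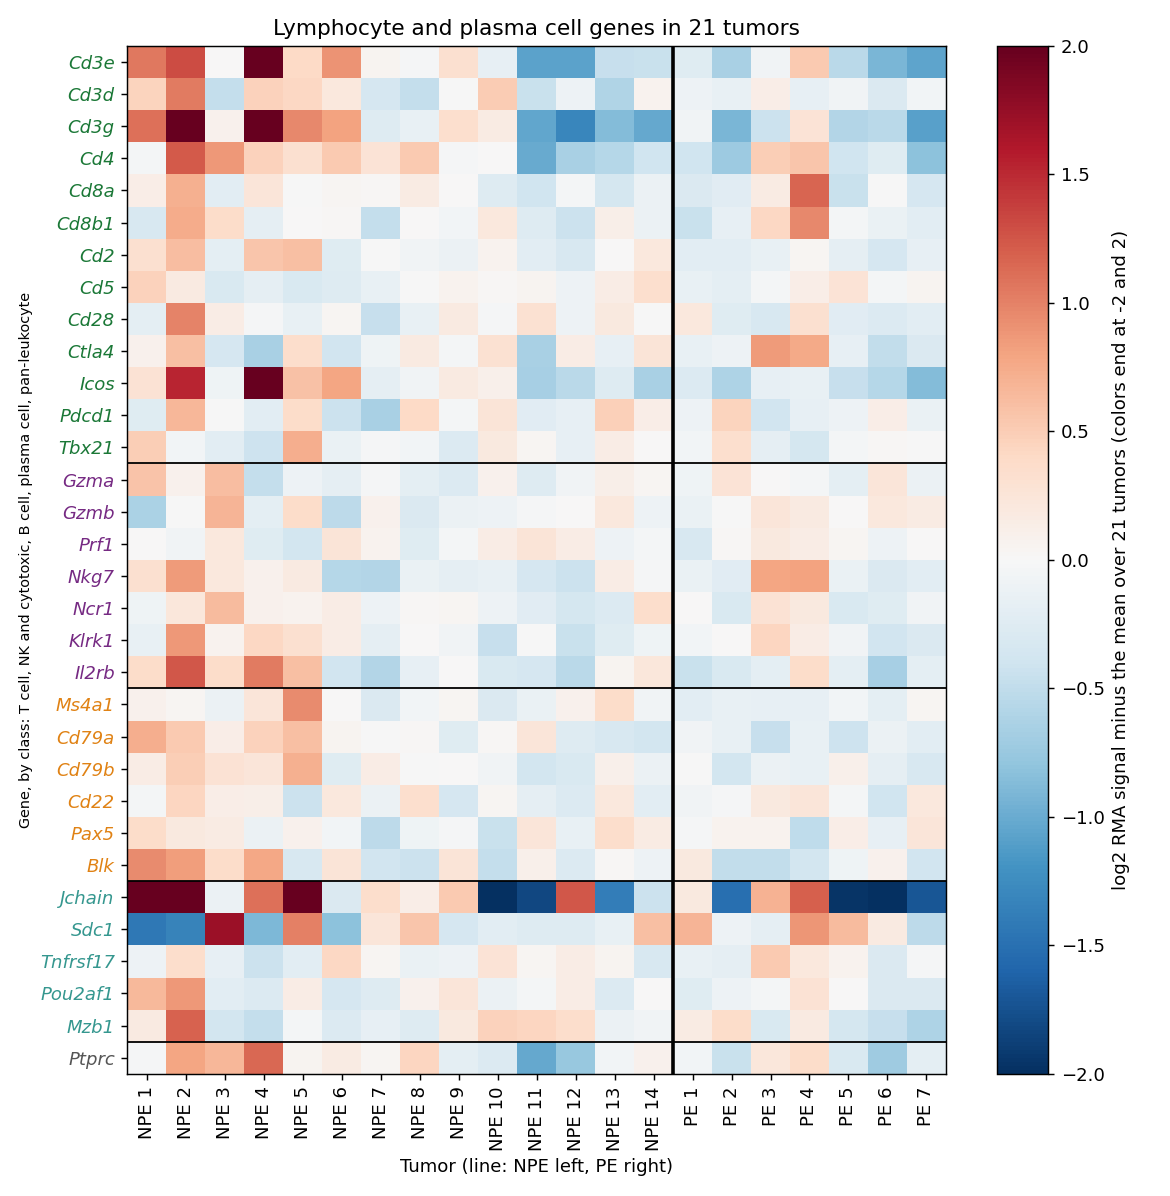
Log2 RMA signal of each of the 32 members (rows, by class) in each of the 21 tumors (columns), as the difference from the member's mean over all tumors, with colors that end at -2 and 2. The widest rows are Jchain, Cd3g, Cd3e, Sdc1 and Icos, and NPE 2 is the column with most maxima, 13 of 32.

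Between NPE and PE tumors no member passed the test. With limma and Benjamini-Hochberg adjustment over 22206 probe sets, 0 of 32 members had an adjusted p under 0.05, where 2 of all probe sets (0.00901%) did. The smallest adjusted p of a member was 0.536. At an unadjusted p under 0.05, 3 of 32 members were higher in NPE and 0 lower, where 4.05% of all probe sets were higher and 4.36% lower. These 3 were Cd79a, Icos and Cd2. In all, 21 members had a higher and 11 a lower mean in NPE tumors, and the median log2 fold change was 0.11, beside -0.000842 over all genes, of which 49.7% were higher. The values of NPE and PE tumors overlapped for all 32 members. Differences were under 0.2 log2 units for 19 members and 0.5 or more for 4, Jchain, Cd3g, Icos and Cd3e. The overlap and these sizes were not counted over all genes, so they cannot be read as particular to the members.

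**Figure D2:**
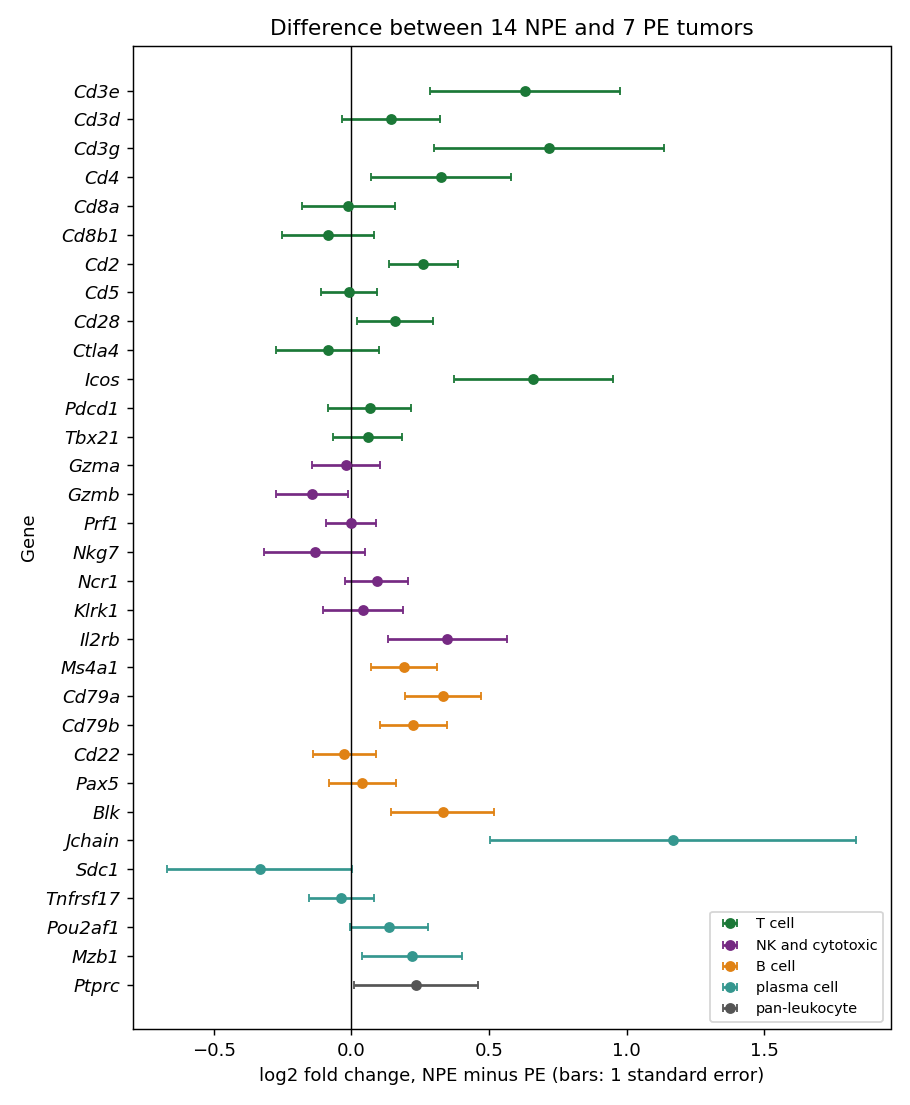
Log2 fold change, NPE minus PE, of each of the 32 members (points, colored by class) with 1 standard error from limma (bars), for 14 NPE and 7 PE tumors. Jchain at 1.17, Cd3g at 0.72, Icos at 0.66 and Cd3e at 0.63 lie farthest to the right, each with a wide bar, and none passed the adjusted threshold.

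Among the T cell genes, Cd3g, Icos and Cd3e had the largest differences. Cd3e encodes the epsilon chain of the CD3 complex. Its log2 signal had a lowest value of 3.73, a median of 4.84 and a highest of 6.94 in NPE tumors, and was 4.56, 4.16, 4.73, 5.33, 4.27, 3.90 and 3.76 in PE tumors 1 to 7, in this order. NPE 4, 2, 1 and 6 lay above every PE tumor, and NPE 11 and 12 lay below all of them. The NPE mean of 5.02 ± 0.90 (s.d., n = 14) was, against 4.39 ± 0.54 (s.d., n = 7) in PE, 1.55-fold higher (log2 fold change 0.63, standard error 0.34, limma adjusted p = 0.634, exact permutation p = 0.106). Cd3g encodes the gamma chain and ran from 3.49 over a median of 4.91 to 7.08 in NPE tumors. In PE tumors it was between 3.71 and 5.06 with a median of 4.25 (log2 fold change 0.72, standard error 0.42, limma adjusted p = 0.652). Its 2 highest tumors, NPE 2 at 7.08 and NPE 4 at 7.05, were also the 2 highest for Cd3e.

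Icos, a costimulatory receptor of activated T cells, ran from 4.19 over a median of 4.87 to 6.91 in NPE and from 3.99 over 4.40 to 4.71 in PE tumors. Of the 14 NPE tumors, 9 were above the highest PE tumor and none was below the lowest. The difference was 0.66 log2 units (standard error 0.29, unadjusted p = 0.0321 and adjusted p = 0.55 from limma, exact permutation p = 0.0426). Cd2, an adhesion receptor of T and NK cells, had a smaller difference of 0.26 (standard error 0.12, unadjusted p = 0.0469 and adjusted p = 0.587 from limma), with 6 of 14 NPE tumors above the highest PE tumor. Cd4, the coreceptor of helper T cells, which some macrophages and dendritic cells also carry, ran from 4.87 over 6.01 to 7.10 in NPE and from 5.06 over 5.48 to 6.42 in PE tumors (log2 fold change 0.33, standard error 0.26, limma adjusted p = 0.759). With the title ranges as a block, the differences were 0.69 for Icos, 0.63 for Cd3e and 0.23 for Cd2, and no member had an unadjusted p under 0.05. Within numbers 18 to 23 they were 0.43, 0.04 and 0.21, and within 28 to 35 they were 0.84, 0.98 and 0.24. Without PE 2, 3, 6 or 7 in turn, 1 member had an unadjusted p under 0.05 in place of 3.

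The third CD3 chain did not follow the other two in size. Cd3d, the delta chain, ran from 3.24 to 4.88 in NPE and from 3.56 to 3.98 in PE tumors, a span of 1.64 log2 units over all tumors beside 3.20 for Cd3e and 3.59 for Cd3g. Its log2 fold change was 0.14 (standard error 0.18, limma adjusted p = 0.87). Cd3d was also the dimmest of the chains. Its mean lay 1.005 log2 units above the array background, beside 1.97 for Cd3e and 1.95 for Cd3g. The part of this low signal in its smaller span and difference was not tested. The differences of Cd8a and Cd8b1, the chains of the coreceptor of cytotoxic T cells, were -0.01 and -0.08. Those of the checkpoint receptors Ctla4 and Pdcd1 were -0.09 and 0.07, and those of Cd5, Cd28 and Tbx21 were -0.01, 0.16 and 0.06. Of the 13 T cell genes, 9 had a higher mean in NPE tumors and the median log2 fold change was 0.14. Without NPE 1 and 2 that median was 0.035, and with the mean of adipocyte markers as a covariate it was -0.007.

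**Figure D3:**
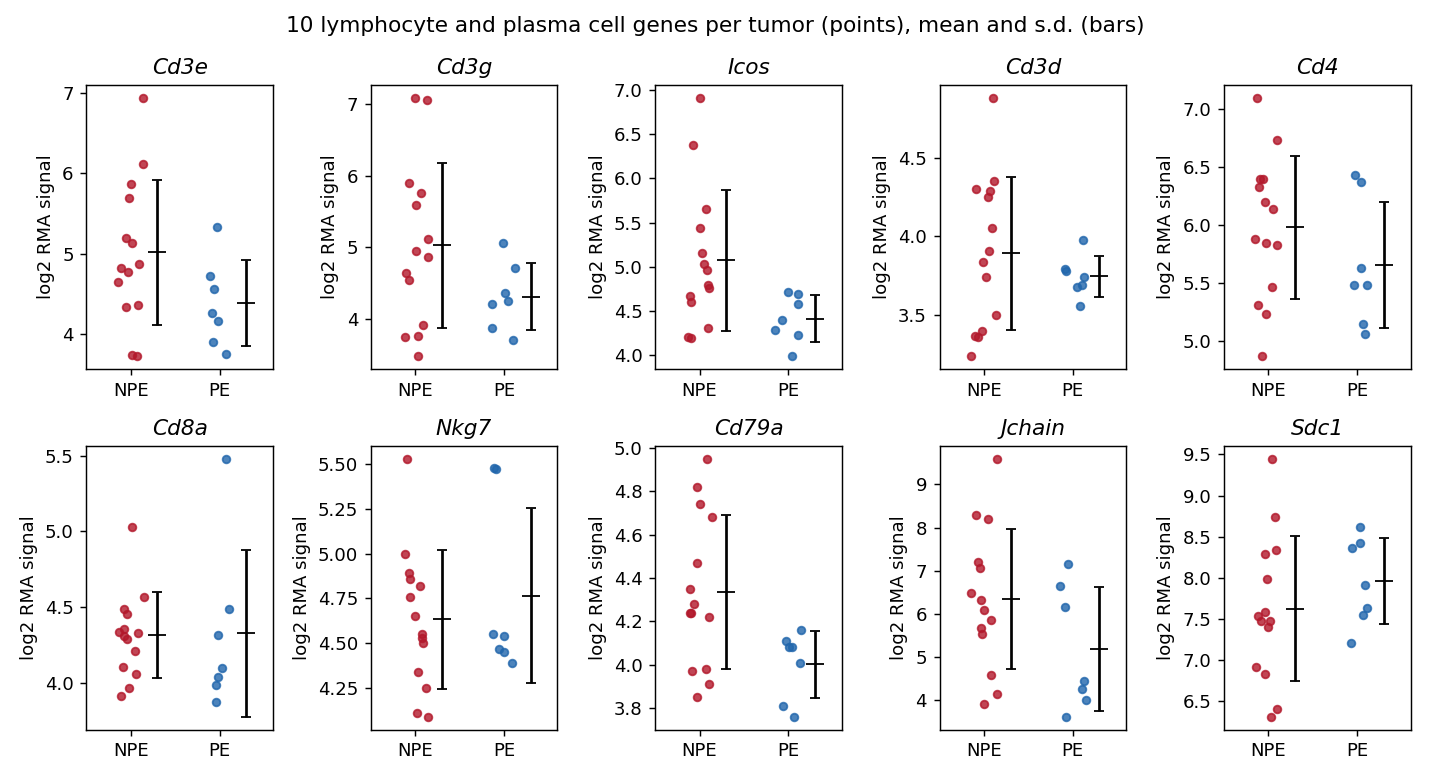
Log2 RMA signal of 10 members in each NPE (n = 14) and PE (n = 7) tumor, 1 point per tumor, with the group mean and s.d. beside the points. The groups overlap in every panel, and for Icos 9 NPE tumors lie above the highest PE tumor.

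Cd3e, Cd3g and Icos moved together from tumor to tumor. Over 21 tumors Cd3e correlated with Cd3g at r = 0.945 (rho = 0.936) and with Icos at r = 0.929 (rho = 0.913), each with a permutation p of 1e-05, the smallest that 100000 resamples can give, and 4.75e-05 after adjustment over 19 relations. Without NPE 4 and NPE 2, which lay farthest from the median of Cd3e, r was 0.918 and 0.877. Within the title ranges 1 to 10, 18 to 23 and 28 to 35, r was 0.947, 0.812 and 0.982 for Cd3g and 0.885, 0.647 and 0.978 for Icos. Il7r, the receptor for the T cell survival factor interleukin 7, is no member and showed r = 0.94 with Cd3e. Cd3d was less closely related (r = 0.63, rho = 0.504, adjusted permutation p = 0.00342), with r = 0.455 without NPE 4 and NPE 2 and 0.819, 0.0358 and 0.671 within the ranges.

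Cd8a, Cd8b1 and Nkg7 had their highest values in PE 4 and NPE 2. Cd8a was highest in PE 4 at 5.48 and next in NPE 2 at 5.03, and lay between 3.88 and 4.57 in the other 19 tumors. Cd8b1 was also highest in PE 4 and NPE 2, at 5.67 and 5.45, followed by PE 3 at 5.13. Nkg7, a granule membrane protein of NK and CD8 T cells, was 5.53 in NPE 2, 5.48 in PE 4 and 5.47 in PE 3, and 5.00 or lower elsewhere. Its relation to Ccl5, a chemokine stored in the same granules and no member, had r = 0.859 (rho = 0.808, adjusted permutation p = 4.75e-05) and r = 0.753 without NPE 2 and PE 4, with 0.877, 0.897 and 0.404 within the ranges. The relation of Cd8a to Cd8b1, r = 0.652 with rho = 0.3, rested on PE 4 and NPE 2, without which r was 0.0148, and was 0.491, 0.88 and 0.25 within the ranges. Over all tumors Cd8a was related to Cd3e, with r = 0.594 (adjusted permutation p = 0.00688) and rho = 0.758 (adjusted permutation p = 0.000326), and r = 0.529 without NPE 4 and NPE 2. Within NPE tumors r was 0.722, within PE tumors 0.8, and within the ranges 0.843, 0.902 and 0.741. NPE 4, the highest tumor for Cd3e and Icos, had Cd8a at 4.57 and Nkg7 at 4.76. Cd3e minus Cd8a, taken from its mean over all tumors, was highest in NPE 4 at 1.88 and lowest in NPE 12 at -1.03, followed by PE 6 at -0.90, PE 7 at -0.71, NPE 11 at -0.67 and PE 4 at -0.64.

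Among the 7 NK and cytotoxic genes, 3 had a higher and 4 a lower mean in NPE tumors, and the median log2 fold change was -0.00126. Il2rb, a chain of the receptors for interleukins 2 and 15, had the largest difference, 0.35 (standard error 0.22, limma adjusted p = 0.678), with a highest value of 5.74 in NPE 2. Nkg7 and Gzmb, the granzyme that starts apoptosis in target cells, had differences of -0.13 and -0.14. Gzma, Prf1 (perforin), Ncr1 and Klrk1 (NKG2D) were between -0.02 and 0.09, with values that reached the array background.

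B cell genes differed little in size but mostly in one direction, with 5 of 6 higher in NPE tumors and a median log2 fold change of 0.21. That median was 0.011 with the title ranges as a block, -0.082 within numbers 18 to 23 and 0.089 within 28 to 35. Cd79a, a signaling chain of the B cell receptor, was 4.16, 4.08, 3.76, 4.08, 3.81, 4.11 and 4.01 in PE tumors 1 to 7. In NPE tumors its lowest value was 3.84, its median 4.26 and its highest 4.95, and 10 of 14 lay above the highest PE tumor. It had the smallest p of all members (log2 fold change 0.33, standard error 0.14, unadjusted p = 0.0234 and adjusted p = 0.536 from limma, exact permutation p = 0.0296). Cd79b, its partner chain, had a difference of 0.22 (standard error 0.12, limma adjusted p = 0.631) and Blk, a kinase of B cells, 0.33 (standard error 0.19, limma adjusted p = 0.64). Ms4a1, which encodes CD20, was 4.48 in NPE 5 and 3.90 or lower elsewhere. Cd22 and Pax5, a surface receptor and the factor that sets B cell identity, differed by -0.02 and 0.04. Cd79a correlated with Cd79b at r = 0.576 (rho = 0.421) and with Blk at r = 0.604 (rho = 0.466). Adjusted permutation p-values were 0.00688 and 0.00516 for r, and 0.0698 and 0.045 for rho. Without NPE 1 and NPE 5, r was 0.436 for Cd79b and 0.652 for Blk, and within PE tumors -0.364 and 0.396. Within the ranges r was 0.658, -0.242 and 0.54 for Cd79b and 0.487, 0.0663 and 0.794 for Blk. With the ranges as a block the difference of Cd79a was 0.26, and that of Blk turned to -0.019.

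Of the plasma cell genes Jchain had by far the widest range. It encodes the chain that joins immunoglobulin A and M molecules into polymers. Its log2 signal was 8.28, 9.60, 5.85, 7.06, 8.19, 5.67, 6.32, 6.09, 6.49, 3.90, 4.14, 7.21, 4.58 and 5.53 in NPE tumors 1 to 14. In PE tumors 1 to 7 it was 6.16, 4.45, 6.65, 7.15, 4.00, 3.61 and 4.25. NPE 2, 1, 5 and 12 were above every PE tumor, and the range from 3.61 in PE 6 to 9.60 in NPE 2 was 63.4-fold. The means were 6.35 ± 1.63 (s.d., n = 14) for NPE and 5.18 ± 1.43 (s.d., n = 7) for PE, a difference of 1.17 log2 units (standard error 0.66, limma adjusted p = 0.644, exact permutation p = 0.124). Within numbers 18 to 23 the difference was -1.79, from a single NPE tumor, and within 28 to 35 it was 2.23 (limma adjusted p = 0.202).

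The other plasma cell genes did not share that pattern evenly. Pou2af1, a coactivator of B and plasma cells, correlated with Jchain at r = 0.707 (rho = 0.586, adjusted permutation p = 0.00057), at 0.546 without NPE 2 and PE 6, and at 0.896, 0.404 and 0.367 within the ranges. Mzb1, an endoplasmic reticulum protein that helps assemble antibody, was 4.51 in NPE 2 and 3.78 or lower elsewhere. Its correlation with Jchain was 0.395 and fell to -0.00297 without NPE 2 and PE 6. Sdc1, the proteoglycan CD138 that epithelial and tumor cells also express, was highest in NPE 3 at 9.45 and lowest in NPE 1 at 6.31, and had r = -0.231 with Jchain. The differences were 0.14 for Pou2af1, 0.22 for Mzb1, -0.33 for Sdc1 and -0.04 for Tnfrsf17, the receptor BCMA of plasma cells. Over the 5 genes, 3 were higher in NPE tumors and the median log2 fold change was 0.14. It was 0.017 without NPE 1 and 2, -0.046 with the adipocyte covariate and -0.098 within numbers 18 to 23. Jchain was related to Cd3e at r = 0.681 (rho = 0.671, adjusted permutation p = 0.00104; 0.789, 0.745 and 0.58 within the ranges), and NPE 12, with Jchain at 7.21 and Cd3e at 3.74, lay off that relation.

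**Figure D4:**
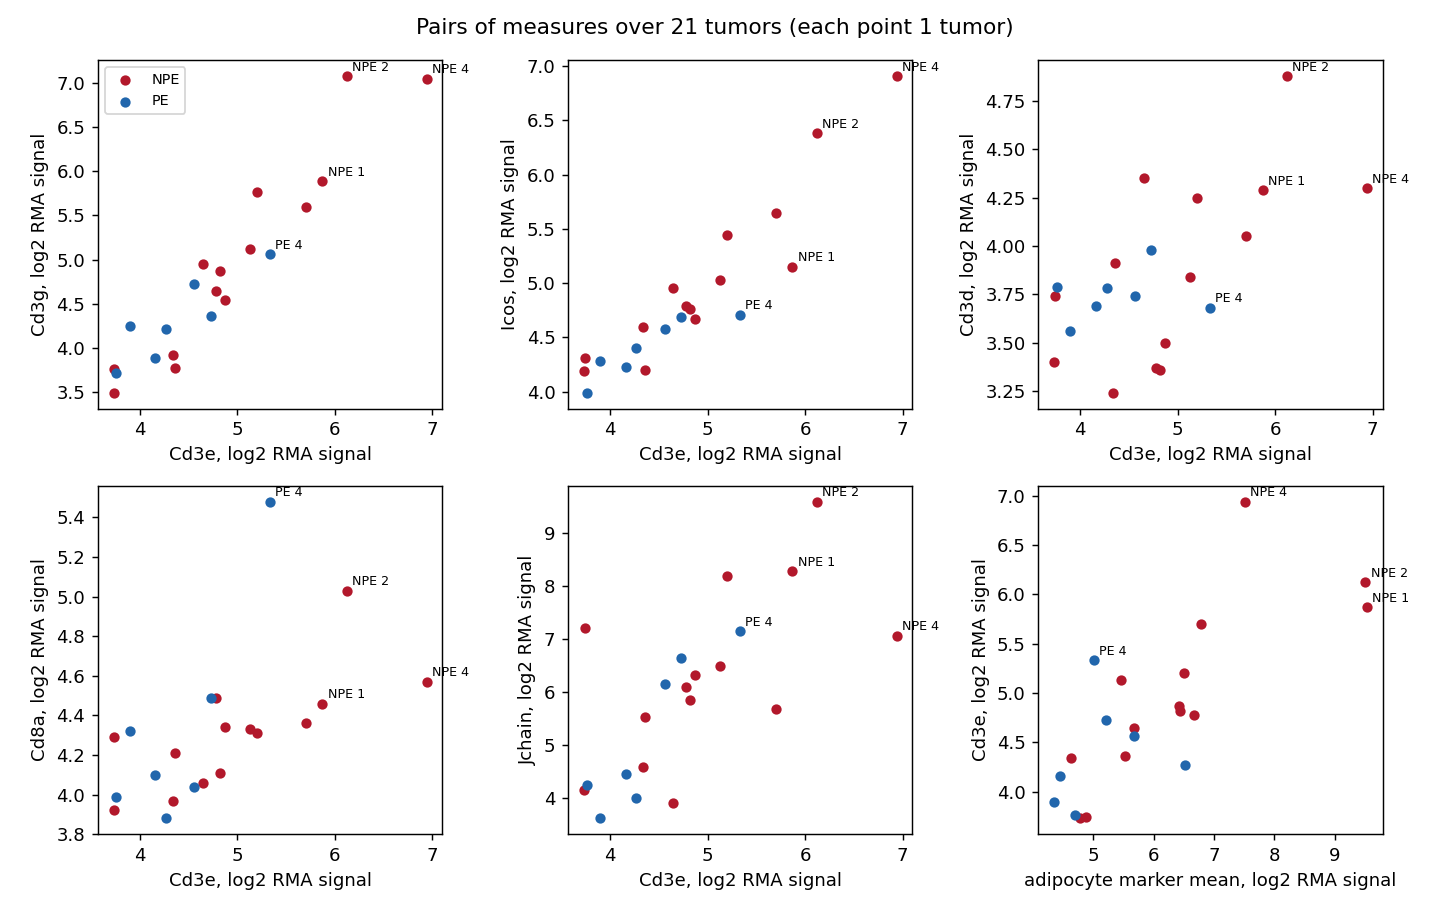
Pairs of log2 RMA signals over 21 tumors, 1 point per tumor, NPE in red and PE in blue: Cd3e against Cd3g, Icos, Cd3d, Cd8a and Jchain, and the mean of 7 adipocyte markers against Cd3e. Cd3g and Icos follow Cd3e closely (r = 0.945 and 0.929), Cd8a has PE 4 at 5.48 away from the others, and NPE 1 and 2 lie at the right of the adipocyte panel.

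Derl3, a component of the degradation of misfolded proteins in the endoplasmic reticulum that plasma cells express strongly, was the only gene of the companion lists to pass the adjusted threshold. It was known to be lower in NPE tumors when the lists were drawn up. Its log2 signal was 5.11 to 5.97 in NPE tumors, with a median of 5.57, and 5.83 to 6.82 in PE tumors, with a median of 6.52. Of the 14 NPE tumors, 13 were below the lowest PE tumor (log2 fold change -0.89, standard error 0.14, limma adjusted p = 0.0188). The call was lost without PE 2, 3, 4, 6 or 7 in turn (adjusted p of 0.0835 to 0.103), while the log2 fold change stayed between -0.99 and -0.83 with any 1 tumor left out. With the title ranges as a block it was -0.86 (adjusted p = 0.138), within numbers 28 to 35 -0.98 (adjusted p = 0.0722), and within 18 to 23 -0.64 (adjusted p = 0.961). Adjusted p was also above the threshold with array weights (0.168), the adipocyte covariate (0.277), the Y-linked covariate (0.061) and the plain test that the methods name (0.0699). The same held without NPE 1 and 2 (0.0803) and with resembling pairs averaged (0.0857). The pairs averaged were NPE 7 and 8, NPE 11 and 12, and PE 6 and 7, while NPE 1 and 2 stayed separate. Across tumors Derl3 correlated with Jchain at r = -0.409, Sdc1 at 0.188, Tnfrsf17 at 0.178, Pou2af1 at -0.184 and Mzb1 at -0.154, with adjusted permutation p-values of 0.326 to 0.508 over the 5 relations. Within the ranges the relation to Jchain was -0.212, 0.616 and -0.882. In 21 tumors no relation of Derl3 to a plasma cell member passed the test.

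The class means, each taken as the deviation from its own mean over the 21 tumors, set the tumors apart as follows. NPE 2 was the highest tumor for all 4 classes, with 0.91 for T cell, 0.46 for NK and cytotoxic, 0.42 for B cell and 0.94 for plasma cell genes. In NPE 4 the T cell and B cell means were 0.50 and 0.29 and the plasma cell mean was -0.20. NPE 3 had 0.40 for NK and cytotoxic and -0.03 for T cell genes. PE 4 had the highest plasma cell mean of the PE tumors, 0.55, beside 0.30 for T cell and -0.18 for B cell genes. All 7 PE tumors had a B cell mean below that of the 21 tumors, from -0.18 to -0.03, while NPE tumors ran from -0.20 to 0.42. The contrast of plasma cell minus B cell means averaged 0.02 ± 0.34 (s.d., n = 14) over NPE and -0.03 ± 0.46 (s.d., n = 7) over PE tumors, and that of T cell minus NK and cytotoxic means 0.06 ± 0.27 and -0.13 ± 0.12. Both contrasts overlapped between the groups. The class means are not scaled, so the genes that vary most weigh most in them. For plasma cell genes these were Jchain and Sdc1, with s.d. over all tumors of 1.63 and 0.78 beside 0.25 to 0.42 for the others. In NPE 3 the plasma cell mean was 0.17, with Jchain at 5.85, below its mean of 5.96, and Sdc1 at 9.45.

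**Figure D5:**
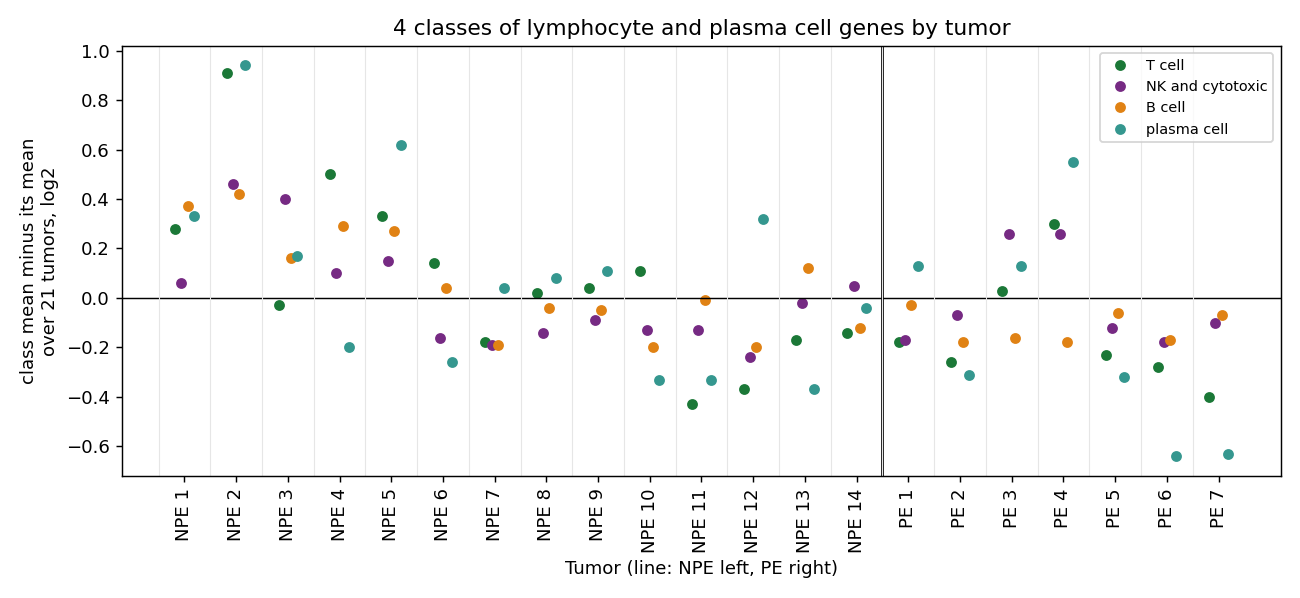
Mean log2 RMA signal of the 13 T cell, 7 NK and cytotoxic, 6 B cell and 5 plasma cell members in each tumor, as the deviation from that class's mean over the 21 tumors. NPE 2 is highest for all 4 classes, and the B cell points of the 7 PE tumors lie between -0.18 and -0.03.

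Markers of other tissues also had unequal group means. All 8 muscle fibre markers had a higher mean in NPE tumors (median log2 fold change 0.43) and all 8 rhabdomyosarcoma markers a lower one (median -0.59), and none of them passed the adjusted threshold. The mean of the muscle fibre markers ran from 7.86 to 11.47 in NPE and from 8.30 to 10.46 in PE tumors, and that of the rhabdomyosarcoma markers from 5.97 to 9.29 and from 8.86 to 9.33. Their part in the members' values was not tested. Adipocyte markers moved with several of the members. All 7 had a higher mean in NPE tumors, by a median of 1.26 log2 units, and the smallest limma adjusted p among them was 0.513. Their mean ran from 4.63 to 9.53 in NPE and from 4.35 to 6.52 in PE tumors. None had a mean below background, and Adipoq, which encodes adiponectin, ran from 3.31 to 10.96 in NPE and from 2.97 to 7.65 in PE tumors. Over 21 tumors the adipocyte mean correlated with Cd3e at r = 0.769 (rho = 0.766), Icos at 0.718, Cd79a at 0.726 and Jchain at 0.685, each with an adjusted permutation p of 0.00192 or less. Without NPE 1 and NPE 2 these were 0.742, 0.738, 0.505 and 0.424. Within PE tumors they were 0.262, 0.388, -0.494 and 0.136, and within numbers 18 to 23 -0.185, 0.179, -0.249 and -0.354. Within 1 to 10 they were 0.877, 0.69, 0.84 and 0.84, and within 28 to 35 0.911, 0.837, 0.636 and 0.699. With the adipocyte mean as a covariate, a setting chosen after seeing the data, the difference of Cd3e was 0.06, that of Icos 0.23, that of Cd79a 0.14 and that of Jchain 0.20, and 0 members had an unadjusted p under 0.05. The part of adipose tissue in these differences was not tested.

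Ptprc, the CD45 phosphatase of all leukocytes, had a difference of 0.23 (standard error 0.22, limma adjusted p = 0.819). It ran from 6.34 in NPE 11 to 8.53 in NPE 4, and from 6.67 to 7.75 in PE tumors. It correlated at r = 0.831 (rho = 0.682, adjusted permutation p = 0.000152) with Csf1r, a receptor of macrophages, at 0.722 without NPE 4 and NPE 11, and at 0.87, 0.492 and 0.875 within the ranges. Macrophages carry Ptprc too. Macrophage markers had a mean of 6.46 to 8.31 over 11 genes in NPE tumors. In PE tumors it was 6.81 to 7.61. Their median difference was -0.09 log2 units, with 4 of 11 higher in NPE, and their part in the values of Ptprc was not tested.

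Other genes of the same cells gave few differences. Of 22 further T cell genes, 12 were higher and 10 lower in NPE tumors, and the median difference was 0.00362. Il7r differed by 0.60 (standard error 0.37, limma adjusted p = 0.674), Sit1 by 0.25 and Lag3 by -0.34. Lef1, a Wnt pathway factor that T cells and many other cells use, had the smallest p of that list, with a log2 fold change of -0.54 (standard error 0.17, limma adjusted p = 0.477). Of 14 further NK and cytotoxic genes 7 were higher, with a median of -0.00251. The 4 with the smallest p were Eomes at -0.34, Cd160 at -0.09, Fasl at -0.10 and Cd244a at 0.14. Klrb1c, a defining NK receptor, ran from 2.25 to 3.35 over all tumors, near the background. Of 15 further B cell genes 13 were higher, by little, with a median of 0.0467. Blnk, an adaptor of the B cell receptor that myeloid cells also use, differed by 0.41 (standard error 0.18, unadjusted p = 0.0332 and adjusted p = 0.55 from limma), Cd37 by 0.39, Btk by 0.21 and Cxcr5 by 0.14.

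Of 12 further plasma cell genes 6 were higher and 6 lower, with a median of 0.00559. After Derl3 the smallest p values were those of Creld2 at -0.49, Tent5c at -0.13 and Txndc5 at -0.17, none past the adjusted threshold. The 5 measured genes of antigen receptor recombination, which developing lymphocytes use, were between -0.07 and 0.17, with Rag2 at 0.17, Ptcra at -0.07, Vpreb1 at 0.07 and Igll1 at -0.06. Of 8 genes of lymphoid tissue stroma, Ccl21a, a chemokine that draws T cells and dendritic cells, differed by 1.01 (standard error 0.38, unadjusted p = 0.0143 and adjusted p = 0.513 from limma). It ran from 5.33 to 9.28 in NPE tumors, highest in NPE 4, and from 5.57 to 6.01 in PE tumors. Ltb, Ccl19 and Cxcl13 differed by 0.28, 0.13 and 0.40.

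The genes outside the set whose levels were most like a class, by the correlation with the mean z score of its members over 21 tumors, differed between classes. For T cell genes they were H2-Q4 (r = 0.901), Epsti1 (0.887), Gm4759 (0.886), H2-Q5 (0.884) and H2-T-ps (0.876). For NK and cytotoxic genes they were Ms4a4c (0.833), Gm12250 (0.81), Iigp1 (0.793), Slfn2 (0.792) and Slamf9 (0.785). For B cell genes they were Cd209f (0.874), Syt15 (0.873), Cd209g (0.866), Ntrk2 (0.85) and Aldh1l1 (0.844). For plasma cell genes they were Ccl5 (0.787), Pfkfb3 (0.767), Trim30d (0.74), Cbr1 (0.732) and Slc1a3 (0.73). The list nearest to the T cell genes holds 3 genes named after the H2 class I loci of the histocompatibility complex. The members of a class were themselves loosely related, with a median r between pairs of 0.32 for T cell, 0.22 for NK and cytotoxic, 0.15 for B cell and 0.16 for plasma cell genes.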

How the data were processed

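RNA from 14 NPE and 7 PE tumors was hybridized to Clariom S Mouse arrays, with 1 array for each. The authors deposited log2 signals summarized by RMA (background correction, quantile normalization and median polish), with Affymetrix Expression Console 1.1 per the labels. Scanner signals were not used here. Of 28846 probe sets, 94 controls and 6546 with MG- names were left out, which leaves 22206. GEO's platform annotation gave 1 symbol for 19572 and none for 2634. The number of arrays limits the precision.

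Groups came from the tumor labels. Groups were compared in R 4.3.3 with limma 3.58.1 (lmFit, eBayes), in a 2-sided test with no covariate and Benjamini-Hochberg adjustment over all probe sets at 0.05, and checked on simulated data. For single genes, an exact 2-sided permutation test over 116280 splits was added. Correlations used 100000 permutations. The 19 relations without Derl3 were a chosen part of all possible pairs, and adjustment over them does not cover that choice. The genes named are all members, up to 4 genes of smallest p of each companion list, Derl3 and the 5 genes most like each class. Genes of other cell types, Neu1, Csf1r, Ccl5 and Klrb1c were added once their values were known. The members and lists were chosen with earlier results of these data known. P-values measure the spread between tumors. Alternatives changed the test, variance model, array weights, normalization, probe sets, tumors left out, blocks and covariates. Figures used matplotlib 3.10.9.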

Additional observations from a re-analysis of the deposited data

Results flagged for a closer look

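Cd8a in PE tumors was flagged because 1 tumor lay far from the others. Its log2 signal was 5.48 in PE 4 and 4.49 in the next PE tumor, PE 3, a gap of 0.623 of the whole range of the 7 tumors. Cd8a was the 1 gene so flagged among the 56 genes checked, and chance alone flags about 1 group in 20. The 14 NPE tumors were too many for this check.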

How the results depend on the processing

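Of the 32 members, 0 passed the adjusted threshold in the main analysis and in each alternative but those restricted to tumors 1 to 7 of each group, where 2 passed with the replicate block (Cd3e and Cd3g) and 2 without it (Cd3g and Cd79a). Tumor numbers do not pair the tumors (correlations of same-numbered deviations of -0.31 to 0.135), and that subset leaves out NPE 8 to 14. The mean of adipocyte markers was 6.43 to 9.53 in NPE 1 to 7 and 4.63 to 6.67 in NPE 8 to 14. The probe sets called higher and lower, 1 and 1 in the main analysis, were 196 and 47 with the replicate block, 320 and 76 in the same tumors without it, 5 and 9 with title ranges as a block, 4 and 0 within numbers 18 to 23, and 149 and 206 within 28 to 35. The lower call was lost (0) with the Y-linked mean or the adipocyte mean as a covariate, with array weights and with a plain t-test. It was also lost without NPE 1 and 2, and with the resembling pairs other than NPE 1 and 2 averaged. Leaving out 1 tumor gave 1 to 2 higher and 0 to 1 lower. At an unadjusted p under 0.05, 3 members were higher in the main analysis and 11 in both fits of tumors 1 to 7. Of the 22206 probe sets, 1970 were higher at that threshold with the replicate block and 1992 without it, beside 900 in the main analysis. The count of members was 1 within numbers 28 to 35. It was 0 with the title ranges as a block, the Y-linked or adipocyte covariate, or without NPE 1 and 2. Leaving out 1 tumor gave 1 (PE 2, 3, 6 or 7) to 6 (NPE 12), with 5 without NPE 11 or PE 4. Within 18 to 23, 1 member was lower in place of 0.

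The T cell, NK and cytotoxic and plasma cell medians, 0.145, -0.001 and 0.137, moved by less than 1 s.d. between tumors under each alternative, but some changed sign. The s.d. of these class means was 0.353, 0.212 and 0.384 in NPE and 0.235, 0.192 and 0.442 in PE tumors. As this exceeds the medians themselves, a median that vanishes also stays within it. The medians were 0.035, -0.015 and 0.017 without NPE 1 and 2, -0.007, -0.038 and -0.046 with the adipocyte covariate, and 0.099, -0.15 and -0.098 within 18 to 23. Leaving out 1 tumor gave 0.068 to 0.182, -0.036 to 0.031 and 0.073 to 0.202, and for B cell genes 0.149 to 0.236. The B cell median, 0.21, was 0.011 with title ranges as a block and -0.082 within 18 to 23. Signs turned for Cd3g (-0.025), Cd4 (-0.007) and Ptprc (-0.052) with the adipocyte covariate, for Il2rb (-0.15), Blk (-0.225), Jchain (-1.79), Ptprc (-0.228) and Il7r (-0.204) within 18 to 23, for Blk (-0.019) with the block, and for Sdc1 (0.052) within 28 to 35. The correlation of Derl3 turned sign with Jchain (0.101), Sdc1 (-0.508) and Pou2af1 (0.088) within PE, and with Mzb1 within NPE (0.277) and without PE 3 and PE 6 (0.037). The cause was not tested. The fits of tumors 1 to 7 without a block, without NPE 1 and 2, with pairs averaged and with the adipocyte covariate were chosen after seeing the data. Averaging the probe sets of a gene could change nothing, since each member has 1. Signal near the background limits Ctla4, Gzma, Prf1, Ncr1, Klrk1 and Mzb1.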

Other observations

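Ccl21a had the same highest tumor, NPE 4 at 9.28, as Cd3e (6.94), Icos (6.91) and Il7r (7.89). NPE 12 was next for Ccl21a at 8.03, while Cd3e was 3.74 in that tumor, the second lowest of all. The mean of 8 dendritic cell markers was also highest in NPE 4, at 4.64 against 3.63 to 4.20 in the other tumors. Of the single markers, Xcr1, Clec9a and Ccr9 were highest in NPE 4. Itgax was highest in PE 4 at 5.72, and Flt3, Zbtb46, Siglech and Cd209a were highest in other NPE tumors. Averaged over all tumors, 2 of the 8, Clec9a and Ccr9, lay below the array background.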
